A study of Mus musculus with 4 samples.

Results

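The plasma cell program was followed through 7 genes, Prdm1, Xbp1, Jchain, Mzb1, Sdc1, Derl3 and Tnfrsf17, chosen by name out of the 31053 genes counted. They were read across the germinal center (GC) B cell subtypes of the deposited annotation, across genotypes and in the barcodes that carry no annotation, to ask how much of this program GC B cells hold. Female mice on a C57BL/6J background, 8 weeks old, received sheep red blood cells (SRBC), an antigen that induces GCs. Splenic B220+IgD- cells were sorted 10 days later and profiled by droplet-based 3' single-cell RNA-seq. Every mouse carried Cγ1Cre, a Cre driven from the immunoglobulin Cγ1 locus that becomes active in antigen-activated B cells. WT had no floxed allele, C was heterozygous for floxed Crebbp, K was heterozygous for floxed Kmt2d, and CK was heterozygous for both, so that a single copy of each targeted gene was lost in the recombined cells. Each genotype was 1 mouse and 1 library, and no difference between genotypes has a replicate check.

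A plasma cell is the antibody-secreting end stage of the B lineage. Prdm1 encodes BLIMP1, the repressor that shuts down the B cell program, and Xbp1 encodes the transcription factor of the unfolded protein response that enlarges the secretory apparatus. Jchain encodes the chain that links polymeric IgM and IgA, Mzb1 an endoplasmic reticulum (ER) cochaperone of immunoglobulin assembly, and Derl3 a component of ER-associated degradation. Sdc1 encodes CD138 and Tnfrsf17 encodes BCMA, surface proteins used to mark plasma cells, of which BCMA receives survival signals. In the GC, centroblasts divide and mutate their immunoglobulin genes, centrocytes are selected, and some cells leave as memory or plasma cells.

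On GRCm38, the build of the annotation used here, Prdm1 spans chr10:44437177-44528501 on the minus strand, Xbp1 chr11:5520659-5525893 on the plus strand, and Jchain chr5:88519809-88527891 on the minus strand. Sdc1 lies at chr12:8771323-8793715 on the plus strand. Derl3 lies at chr10:75893413-75895941 and Tnfrsf17 at chr16:11313812-11320074, both on the plus strand.

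RefSeq promoter windows (GRCm38.p6) of 300 bases around the annotated start were read for 6 of the 7 genes, Mzb1 left out, and 3 are shown. Derl3 is shown because its window holds the ER stress response element, the spaced pair of CCAAT and CCACG bound by unfolded protein response factors. Xbp1 and Jchain are shown for comparison, as a regulator and the member with the highest level in plasma-like cells. The sequences read 5' to 3' along the gene, with CCACG, ACGT and the CCAAT and CCACG ends of the element in capitals on either strand (CGTGG and ATTGG on the other strand).
Derl3 (chr10:75893148-75893447, plus strand): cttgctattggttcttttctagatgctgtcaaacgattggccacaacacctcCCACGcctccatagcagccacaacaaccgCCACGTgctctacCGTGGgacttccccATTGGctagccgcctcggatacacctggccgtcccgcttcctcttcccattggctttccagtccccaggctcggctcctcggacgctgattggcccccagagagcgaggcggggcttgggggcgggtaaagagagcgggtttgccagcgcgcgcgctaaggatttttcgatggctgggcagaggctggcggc
Xbp1 (chr11:5520391-5520690, plus strand): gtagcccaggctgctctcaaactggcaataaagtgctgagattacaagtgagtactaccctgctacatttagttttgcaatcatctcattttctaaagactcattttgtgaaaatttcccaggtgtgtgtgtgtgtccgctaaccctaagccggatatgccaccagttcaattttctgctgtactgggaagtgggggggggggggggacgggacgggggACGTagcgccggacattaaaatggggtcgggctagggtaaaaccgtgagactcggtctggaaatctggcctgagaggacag
Jchain (chr5:88527848-88528147, minus strand): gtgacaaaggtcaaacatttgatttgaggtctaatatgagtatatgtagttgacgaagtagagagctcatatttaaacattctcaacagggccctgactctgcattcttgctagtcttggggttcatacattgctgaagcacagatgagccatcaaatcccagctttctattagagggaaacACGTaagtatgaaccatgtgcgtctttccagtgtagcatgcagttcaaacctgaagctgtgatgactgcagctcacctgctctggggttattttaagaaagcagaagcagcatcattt
The full element, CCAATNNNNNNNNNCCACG on either strand, was found in the Derl3 window alone among these 6, on the minus strand 156 bases upstream of the start, and in 39 of 32817 promoter windows of that length (0.119%). The short motif CCACG occurred in the windows of Derl3, Prdm1 and Sdc1 and in 32.8% of all windows, and overlaps the element. The core ACGT, present once in each of the 3 windows shown, occurred in 30.9% of all windows, and in Derl3 it overlaps a CCACG. These matches describe letters in the windows only.

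The libraries held 33270825 to 39803865 UMIs (molecular barcodes, where 1 UMI stands for 1 transcript that was captured) in 39009 barcodes, of which 9804 were annotated as GC B cells and 29205 were not. Barcodes under the mitochondrial limit were clustered together, and the unannotated ones were named from markers that exclude the 7 genes. In the annotated cells the T cell gene Cd3e stood at 1.95 to 4.81 CPM (counts of a gene scaled to a common total of UMIs). Cd3e reached 1091 to 1152 CPM in T-like cells, of which there were 6787. Crebbp stood at 68.4, 43.0, 38.6 and 38.0 CPM in WT, C, K and CK annotated cells, and Kmt2d at 18.5, 21.3, 9.85 and 15.1 CPM. Crebbp was thus also lower in K than in WT, and in T-like cells it stood at 46.7 CPM in the K library against 81.6 in the WT library. Kmt2d in T-like cells stood at 26.4, 31.4, 14.9 and 26.9 CPM in WT, C, K and CK, so K was the lowest there too. The reads lie at 3' ends, and whether they cover the deleted parts is not given in the sources used here, so this is a weak check of the labels. Libraries shared 143 barcode sequences, 9 of them among annotated cells.

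The full program was found in a small class outside the annotation. A plasma-like class of 231 cells, 0.592% of all barcodes, was made of 43, 53, 65 and 70 cells in WT, C, K and CK. None of them was annotated, and none was called a doublet. Each of its 4 clusters passed on all 10 plasma cell markers used for naming. Immunoglobulin transcripts made up 47.5% of its UMIs, against 1.62% to 2.29% in the pooled GC subtypes. CPM values of other genes in plasma-like cells are therefore lowered by the immunoglobulin share, and values computed without immunoglobulin genes in the total are given where this matters.

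**Figure D1:**
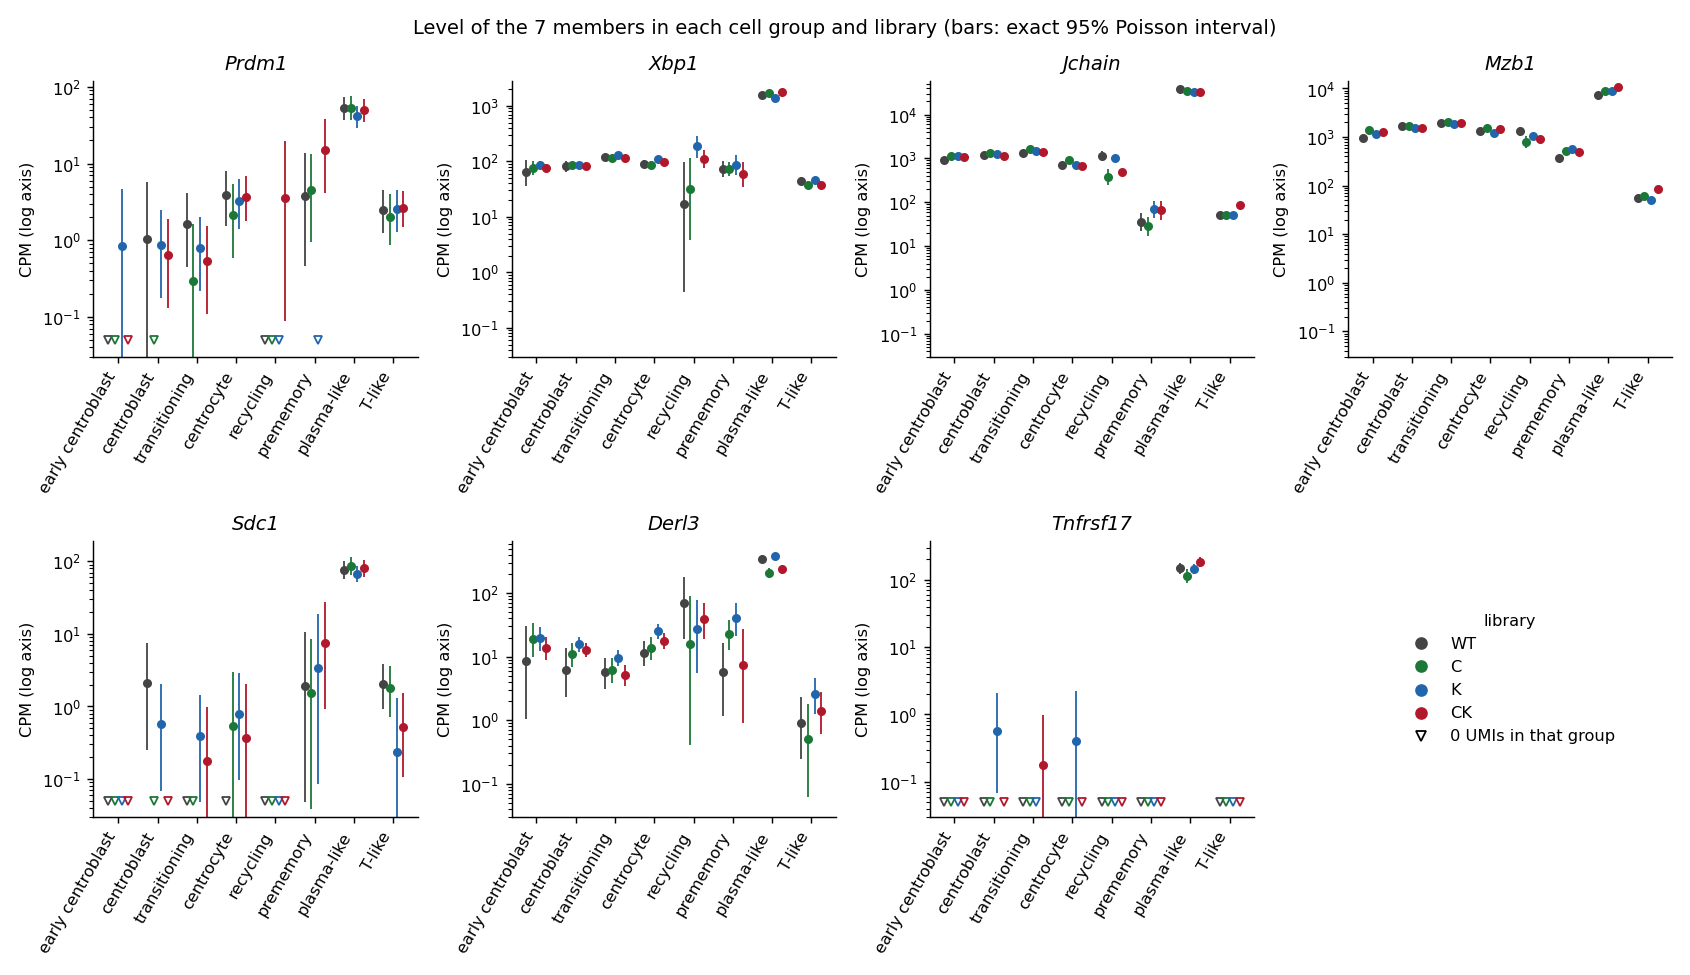
CPM of each of the 7 genes (log axis) in 6 annotated GC subtypes, plasma-like cells and T-like cells, with 1 point per library (WT, C, K, CK), exact 95% Poisson intervals as bars and open triangles for 0 UMIs. All 7 genes were highest in plasma-like cells in each library, and Jchain and Mzb1 in the dividing and transitioning subtypes lay far above their T-like level.

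The 7 genes were concentrated in plasma-like cells to very different degrees. These cells held 93.5% of all Tnfrsf17 UMIs and 53.3% of Sdc1 UMIs. They held 48.2% of Jchain, 35.7% of Derl3, 33.9% of Prdm1, 27.6% of Xbp1 and 15.02% of Mzb1 UMIs. Annotated GC cells held 39.4% of Mzb1, 25.5% of Xbp1, 23.5% of Jchain, 21.5% of Derl3 and 14.1% of Prdm1 UMIs, but 3.83% of Sdc1 and 0.870% of Tnfrsf17. A further class of 2947 GC B-like cells lay outside the annotation. It added 26.8% of Mzb1, 22.1% of Xbp1, 20.9% of Jchain, 27.0% of Derl3 and 12.6% of Prdm1 UMIs. Its part of Sdc1 was 2.87% and of Tnfrsf17 0.870%. The annotated shares alone therefore understate what GC cells held. Mzb1 was thus the gene most spread over GC cells, and the surface genes the most confined to plasma-like cells.

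The 7 genes were left out of the clustering, but the class was made from other transcripts of the same cells, so its levels are a description. All 7 genes were at least 2-fold higher in plasma-like than in annotated cells in each of the 4 libraries, immunoglobulin genes left out of the total. The same held for 6.67% of the 11328 genes with enough UMIs, and 13.3% were at least 2-fold lower in each library. Among 28 secretory and plasma cell genes, of which 10 are the naming markers, all 28 were at least 2-fold higher in every library. Fkbp11, a folding enzyme of the ER, had a mean of 862 CPM over the 4 plasma-like libraries and 0.455 CPM in annotated cells. Among 14 genes of B cell identity 13 were at least 2-fold lower, such as Pax5, the B lineage factor, at 11.9 against 165 CPM. The exception was Cd79a, the signalling chain of the B cell receptor, at 1893 against 3166 CPM.

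Prdm1 was nearly absent from the dividing GC subtypes. In plasma-like cells it stood at 53.5, 53.3, 41.5 and 49.998 CPM in WT, C, K and CK, from 32 to 38 UMIs per library. In centrocytes it stood at 3.83, 2.12, 3.20 and 3.69 CPM in the same order, from 4 to 10 UMIs. The centrocyte values lay below those of plasma-like cells in each library and did not overlap with them. Pooled levels were 5.15 CPM in prememory cells, 3.25 in centrocytes, 1.94 in recycling cells, 0.722 in transitioning cells, 0.621 in centroblasts and 0.264 in early centroblasts. The prememory value rests on 9 UMIs, 4 of them in CK and none in K. T cells are known to use Prdm1 as well, and T-like cells stood at 2.45 CPM, so they are no measure of background for this gene. Plasmacytoid dendritic-like cells held 0 UMIs of 869298.

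Xbp1 was detected in all GC subtypes at a moderate level and stood highest in plasma-like cells. Plasma-like cells held 1607, 1692, 1400.3 and 1754 CPM in WT, C, K and CK. Plasmacytoid dendritic-like cells, which are interferon-secreting cells, held 371, 312, 334 and 286 CPM and stood next. Among the larger GC subtypes transitioning cells led with 119, 117, 128 and 116 CPM, centrocytes with 90.2, 85.5, 109 and 97.5 CPM, and centroblasts with 81.1, 85.6, 85.5 and 83.4 CPM. The transitioning range lay above those of centrocytes and centroblasts without overlap, while the ranges of centrocytes and centroblasts overlapped at their ends. T-like cells, which also express Xbp1, stood at 37.3 to 46.0 CPM.

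Jchain levels differed widely among GC subtypes. In plasma-like cells it held 39098, 34854, 32144 and 33093 CPM in WT, C, K and CK. In transitioning cells it stood at 1353, 1615, 1467 and 1383 CPM, and in centroblasts at 1225, 1364, 1232 and 1126 CPM. In centrocytes it stood at 725, 930.1, 704 and 679 CPM. In prememory cells it was only 36.0, 28.9, 71.0 and 67.6 CPM, which overlaps the T-like range of 50.7 to 88.3 CPM. The ranges of transitioning cells and centroblasts met at their ends, those of centroblasts and centrocytes did not overlap, and prememory cells lay apart from all other subtypes. Early centroblasts, at 905 to 1143 CPM, overlapped both centroblasts and centrocytes. Levels in recycling cells ran from 386 to 1150 CPM over only 82 cells.

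Mzb1 (chr18:35647267-35649367, minus strand) was held by every GC subtype. It stood at 7305, 8710, 8968 and 10557 CPM in WT, C, K and CK plasma-like cells. Transitioning cells held 1943, 2058, 1823 and 1924 CPM and prememory cells 373, 509, 564 and 503 CPM, with T-like cells at 50.5 to 85.5 CPM. The prememory level lay below every other GC subtype and still above T-like cells in each library. A cluster outside the GC annotation led by Cr2, Cd1d1 and Plac8 held 1587 to 1714 CPM of Mzb1, which fell within or close to the range of centroblasts (1505 to 1684 CPM).

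Derl3 followed another order than Jchain and Mzb1. Plasma-like cells held 351, 210.0, 380.1 and 237 CPM in WT, C, K and CK. Centrocytes stood at 11.5, 13.8, 25.2 and 17.7 CPM and transitioning cells at 5.71, 6.20, 9.65 and 5.09 CPM. The centrocyte range lay above that of transitioning cells without overlap. The pooled recycling value, the highest among GC subtypes at 36.9 CPM, rests on 19 UMIs. T-like cells held 0.507 to 2.56 CPM.

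The surface genes were almost wholly missing from GC cells. Sdc1 stood at 75.8, 86.7, 67.7 and 80.6 CPM in WT, C, K and CK plasma-like cells. It gave 16 UMIs over all annotated cells, and its T-like level of 1.09 CPM exceeded that of each subtype except prememory cells (2.86 CPM from 5 UMIs). Non-GC B-like cells held more, at 8.59 to 15.1 CPM. Tnfrsf17 stood at 147, 113, 143 and 183 CPM in plasma-like cells and gave 4 UMIs in the 9804 annotated cells, 3 of them in K and 1 in CK. T-like cells held 0 Tnfrsf17 UMIs.

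Set against the plasma-like class, the highest GC subtype reached 21.6% of the plasma-like CPM for Mzb1, 12.2% for Derl3, 10.5% for Prdm1, 7.52% for Xbp1, 4.20% for Jchain, 3.73% for Sdc1 and 0.120% for Tnfrsf17. Without immunoglobulin genes in the total these shares became 11.6%, 6.501%, 5.67%, 4.04%, 2.26%, 2.004% and 0.0643%. The number of genes below 10% of the plasma-like level was 4 of 7 with all genes counted and 6 of 7 without immunoglobulin genes.

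The share of cells with a UMI was compared after each cell was thinned to 2000 UMIs, which left out 568 of 9804 annotated, 2338 of 6787 T-like and 11 of 231 plasma-like cells. Median depths before thinning were 4193 UMIs in annotated, 2302 in T-like and 12078 in plasma-like cells. Mzb1 was detected in 90.9% of annotated cells (exact Clopper-Pearson interval 90.3 to 91.5) against 9.87% of T-like cells. Jchain was detected in 76.4% (75.5 to 77.2) against 9.62%, and Xbp1 in 17.0% (16.3 to 17.8) against 7.37%. Derl3 was detected in 2.06% (1.78 to 2.37) against 0.135%. For these 4 genes the annotated share lay above the upper bound of the T-like share in all 4 libraries.

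Prdm1, Sdc1 and Tnfrsf17 did not pass that comparison. Their annotated shares were 0.260%, 0.0758% and 0.0108%, against 0.315%, 0.135% and 0 of 4449 in T-like cells, which allows a share of up to 0.0674% (3 counts). For Prdm1 the comparison cannot decide, because T cells use this gene and T-like cells are no background for it. Without thinning the annotated shares were 0.490% for Prdm1 and 84.8% for Jchain, and 41.1% and 100% in plasma-like cells. Thinned plasma-like shares were 99.1% for Jchain and for Mzb1, 86.8% for Xbp1, 39.1% for Derl3, 19.5% for Tnfrsf17, 16.4% for Sdc1 and 7.73% for Prdm1.

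Of the pooled member UMIs in plasma-like cells, 75.7% were Jchain and 19.6% Mzb1, whereas in T-like cells 36.0% were Jchain and 37.4% Mzb1. Single cells carried much of the Jchain in a pair of classes. The highest cell of the WT cluster led by Cr2, Cd1d1 and Plac8 held 623 of its 733 Jchain UMIs, with 6 of the 7 genes detected and 31.7% immunoglobulin. The level of that cluster was 677 CPM with this cell and 104 CPM without it. In CK, 1 T-like cell held 141 of 505 Jchain UMIs, and the T-like level was 63.8 CPM without it.

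Few GC cells carried many of the 7 genes together. After thinning, the median number detected was 2 in early centroblasts, centroblasts, transitioning cells, centrocytes and recycling cells, 1 in prememory cells, 0 in T-like cells and 4 in plasma-like cells. At least 4 were detected in 54.5% of plasma-like cells (47.7 to 61.3), in 0.497% of centrocytes (0.248 to 0.888) and in 0.0456% of centroblasts. Without thinning, at least 5 were detected in 180 of 231 plasma-like cells and in 3 of 9804 annotated cells. The 3 annotated cells were 1 centroblast and 1 centrocyte of K and 1 recycling cell of CK. All 7 were found in 29 plasma-like cells and in 0 of 9804 annotated cells, which allows a share of up to 0.0306% (3 counts) with all 7 detected at their lower depth. The plasma-like cells were deeper, so the unthinned counts of both classes cannot be compared directly.

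**Figure D2:**
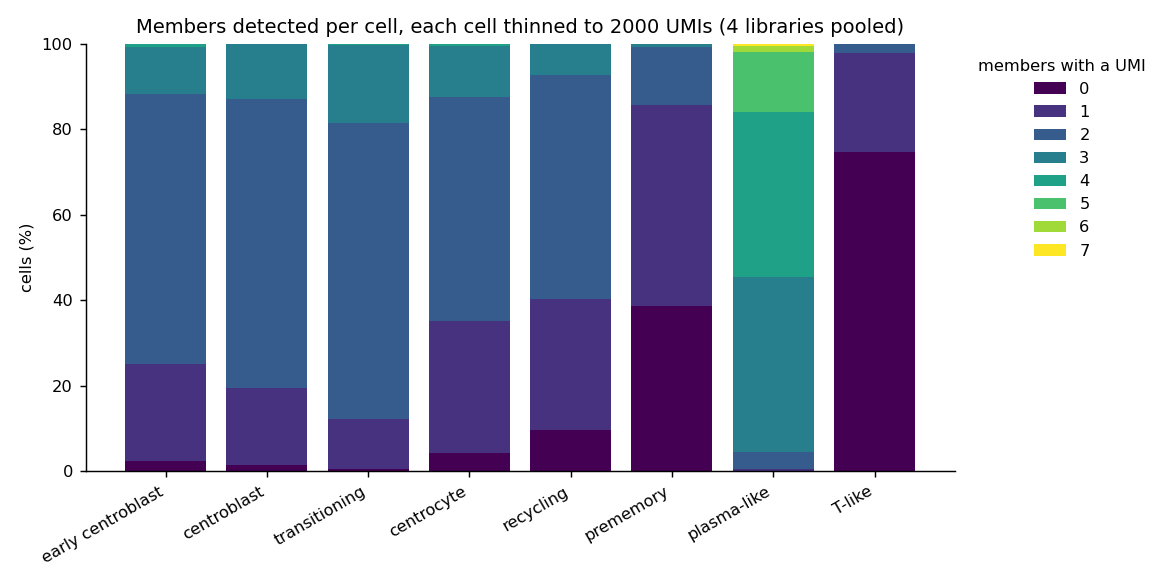
Share of cells (vertical axis, percent) with 0 to 7 of the genes detected, for each cell thinned to 2000 UMIs and the 4 libraries pooled. GC subtypes other than prememory cells have a median of 2 genes, and plasma-like cells of 4.

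The plasma-like cells were not uniform. Their 4 clusters, of 45, 66, 66 and 54 cells, had immunoglobulin shares of 39.5%, 51.1%, 67.7% and 27.6%. With immunoglobulin genes out of the total, the cluster of lowest share held 575 CPM of Mki67, a gene of dividing cells, against 31.2 to 69.0 CPM in the other 3. It also had the lowest Xbp1 (1694 against 2598 to 4376 CPM) and Jchain (29800 against 50029 to 140291 CPM), and the highest Tnfrsf17 (424 against 70.3 to 355 CPM), detected in 72.2% of its cells against 27.3% to 39.4%. These values are a description, since transcripts of the same cells made the clusters.

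Among the annotated subtypes the tested genes moved in different directions. Sums per library and subtype were compared with centrocytes in edgeR's quasi-likelihood test, with the library as a block and Benjamini-Hochberg adjustment over 8797 genes. Jchain, Mzb1, Xbp1 and Derl3 passed the filter on low counts, and Prdm1, Sdc1 and Tnfrsf17 did not. Subtypes were named from expression by the authors, and the 4 mice differ in genotype. With the library as a block, p-values set the mean difference between subtypes against how much such differences vary from library to library.

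In transitioning cells Jchain rose by 0.85 on the log2 scale (SE 0.064, edgeR adjusted p = 2.39e-22), Mzb1 by 0.38 (SE 0.057, edgeR adjusted p = 1.23e-08) and Xbp1 by 0.21 (SE 0.073, edgeR adjusted p = 0.0138). Derl3 fell by 1.502 (SE 0.196, edgeR adjusted p = 1.23e-10). Called genes of all tested made up 19.5% higher and 21.9% lower in this contrast. The Xbp1 call was lost without the WT library (0.18, edgeR adjusted p = 0.056) and with DESeq2 (adjusted p = 0.177).

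In centroblasts Jchain rose by 0.59 (edgeR adjusted p = 9.95e-14) and Mzb1 did not pass, at 0.07 (edgeR adjusted p = 0.290). Xbp1 fell by 0.32 and Derl3 by 0.62 (edgeR adjusted p = 0.000726 and 0.00302). Both calls were lost when cells above the gene limit of the annotation were added, at -0.02 and -0.13, and both were lost without the K library, at -0.21 and -0.49. The background was 24.7% of genes higher and 28.8% lower. In early centroblasts Jchain rose by 0.46 (edgeR adjusted p = 2.42e-08), while Xbp1 fell by 0.36 and Mzb1 by 0.24, against 22% of genes called higher and 24.3% lower. DESeq2 did not call Jchain there (adjusted p = 0.184), and the Xbp1 call was lost without K, without CK (edgeR adjusted p = 0.057 and 0.084) and with added cells (-0.09).

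In prememory cells the fall was by far the greatest for Jchain, by 4.21 on the log2 scale (SE 0.149, edgeR adjusted p = 1.66e-48), followed by Mzb1 at -1.65 (SE 0.078, edgeR adjusted p = 1.65e-37), and Xbp1 at -0.45 (edgeR adjusted p = 0.00869). Derl3 did not pass, at 0.06 (edgeR adjusted p = 0.899). The background was 18.9% higher and 20.4% lower. The Xbp1 call was lost without CK (-0.38, edgeR adjusted p = 0.060). In recycling cells Mzb1 fell by 0.74 (edgeR adjusted p = 1.19e-10) and Jchain by 0.34 (edgeR adjusted p = 0.0259), with 9.51% of genes higher and 14% lower. That Jchain call was lost without C (-0.08), without CK (-0.12), with RLE size factors (-0.24), with added cells (-0.21) and with DESeq2 (-0.19).

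Prdm1 had too few UMIs for the filter. Without the filter it was called lower than in centrocytes in early centroblasts, centroblasts and transitioning cells, at -3.34, -2.30 and -2.08 (edgeR adjusted p = 0.00678, 0.000716 and 0.000656), while Sdc1 and Tnfrsf17 passed in no contrast, with a smallest edgeR adjusted p = 0.162.

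The wider secretory program did not follow Jchain and Mzb1. Of 28 secretory and plasma cell genes 25 were tested. In centroblasts 3 were higher, 14 lower and 8 not called, with a median of -0.31 beside -0.05 for all genes. The lower ones included Hspa5, the main ER chaperone (-1.17), and the disulfide isomerases Pdia6 (-0.85) and Pdia4 (-0.83), and the higher ones Txndc11 (0.87). In transitioning cells 3 were higher and 10 lower with a median of -0.10 beside -0.03. The plasma cell factor Irf4 (-2.11), Pdia4 (-0.86), Txndc11 (0.82) and the chaperone Hsp90b1 (-0.67) had the largest changes. In early centroblasts 7 were higher and 8 lower with a median of -0.09 beside -0.08, among them Irf4 (-1.85) and Sdf2l1 (0.99). In recycling cells 2 were higher and 2 lower of 25, with a median of -0.15 beside -0.23.

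In prememory cells 7 genes of the same list were higher, 8 lower and 10 not called, where 18.9% of all genes were higher and 20.4% lower. The median of the list was 0.03, beside -0.02 for all genes. Irf4 rose by 2.48 and Pdia4 by 2.02, whereas Eaf2 and Slpi, at -3.71 and -3.15, fell with Jchain. Genes of B cell identity were called lower than in centrocytes more often than higher in each subtype. Of 14, 11 were lower and 0 higher in prememory cells, 11 and 0 in recycling cells, and 10 and 2 in centroblasts. In early centroblasts 10 were lower and 1 higher, and in transitioning cells 7 and 3. Of all genes 20.4%, 14%, 28.8%, 24.3% and 21.9% were lower, with the subtypes in the same order. The lower genes in prememory cells included Bcl6, the GC regulator (-2.98), and Bach2 (-1.71).

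Along the deposited pseudotime order, which starts in centroblasts, each library was divided into 5 equal parts. Jchain stood at 1184 CPM in the first part of WT and 367 in the last, at 1302 and 469 in C, at 1229 and 648 in K and at 1101 and 625 in CK. The last part was the lowest in each library. Mzb1 ran highest in the third part in WT and C (1771 and 2026 CPM) and in the fourth in CK (1903 CPM), and in K both parts stood at 1744 CPM. In WT and CK the interval of the highest part overlapped that of a neighbouring part. Mzb1 ran lowest in the last part in WT (1023 CPM) and C (1180 CPM), but lowest in the first part in K (1273 CPM) and CK (1349 CPM). Derl3 was lowest in the third part in all 4 libraries, at 5.71, 5.37, 10.7 and 7.07 CPM in WT, C, K and CK, and stood at 10.9, 13.2, 26.9 and 12.7 CPM in the last. The parts hold different subtypes, led by centroblasts in the first and centrocytes in the last.

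**Figure D3:**
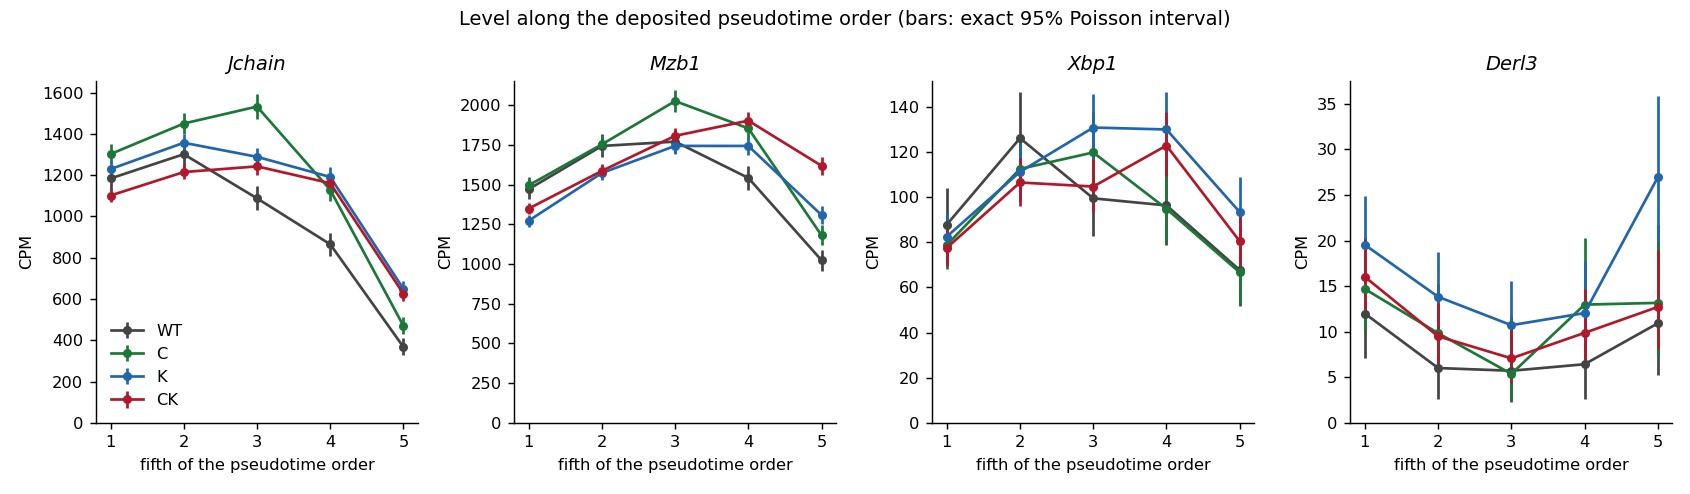
CPM of Jchain, Mzb1, Xbp1 and Derl3 (vertical axes) in 5 equal parts of the pseudotime order of each library (horizontal axis), with exact 95% Poisson intervals. Jchain is lowest in the last part in all 4 libraries. The Derl3 point is lowest in the third, from 7 to 27 UMIs, with intervals that overlap those of neighbouring parts.

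A Prdm1 UMI was found in 48 of 9804 annotated cells (0.490%, exact Clopper-Pearson interval 0.361 to 0.649). The shares were 0.896%, 0.343%, 0.426% and 0.481% in WT, C, K and CK, from 11, 7, 11 and 19 cells, and the interval of WT (0.448 to 1.60) overlapped those of all others. By subtype they were 24 centrocytes, 10 transitioning cells, 8 prememory cells, 4 centroblasts, 1 early centroblast and 1 recycling cell. Of the 48 cells, 10 held more than a single Prdm1 UMI and 2 were called doublets.

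The 24 centrocytes with a Prdm1 UMI carried more of the other program genes than the 2420 without. Jchain stood at 2672 CPM with and 695 without in WT, at 2068 and 916 in C, at 3656 and 661 in K and at 2434 and 660.2 in CK. It was higher with a Prdm1 UMI in 4 of 4 libraries, by 1.96 on the log2 scale when pooled (exact interval 1.79 to 2.12), and by 1.66 without the cell richest in Jchain. Mzb1 was higher in 4 of 4 libraries, by 0.67 (0.49 to 0.85), and Xbp1 in 3 of 4, by 1.24 (0.62 to 1.80), with WT the other way at 35.6 against 91.1 CPM. Derl3 stood at 51.8 against 17.3 CPM from only 6 UMIs, higher in 2 of 4 libraries, and its ratio of 1.59 became 1.09 (-0.81 to 2.47) without the cell richest in Jchain. Sdc1 and Tnfrsf17 gave 0 UMIs in these cells.

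The intervals of the 4 measurable members lay above 0, as did those of 4.05% of the 9426 genes with enough UMIs, while 2.4% lay below 0. Of the secretory and plasma cell list 6 of 25 genes had intervals above 0 and none below, with a median of 0.42 beside -0.11 for all genes. Named after their values were seen, these included Irf4 at 2.90 (1.40 to 4.11, from 6 UMIs) and Hsp90b1 at 1.33 (0.98 to 1.66), both higher in 4 of 4 libraries. Of 14 B cell identity genes 7 had intervals below 0 and 2 above, with a median of -0.90. Bach2 stood at -1.88 (-3.32 to -0.75), Id3 at -1.71 and Ebf1 at -1.04, each lower in 4 of 4 libraries, and Irf8 at 0.80 and Cd79a at 0.22 were the genes above 0. Bcl6 stood at -1.69 (-4.74 to 0.18) from 2 UMIs.

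**Figure D4:**
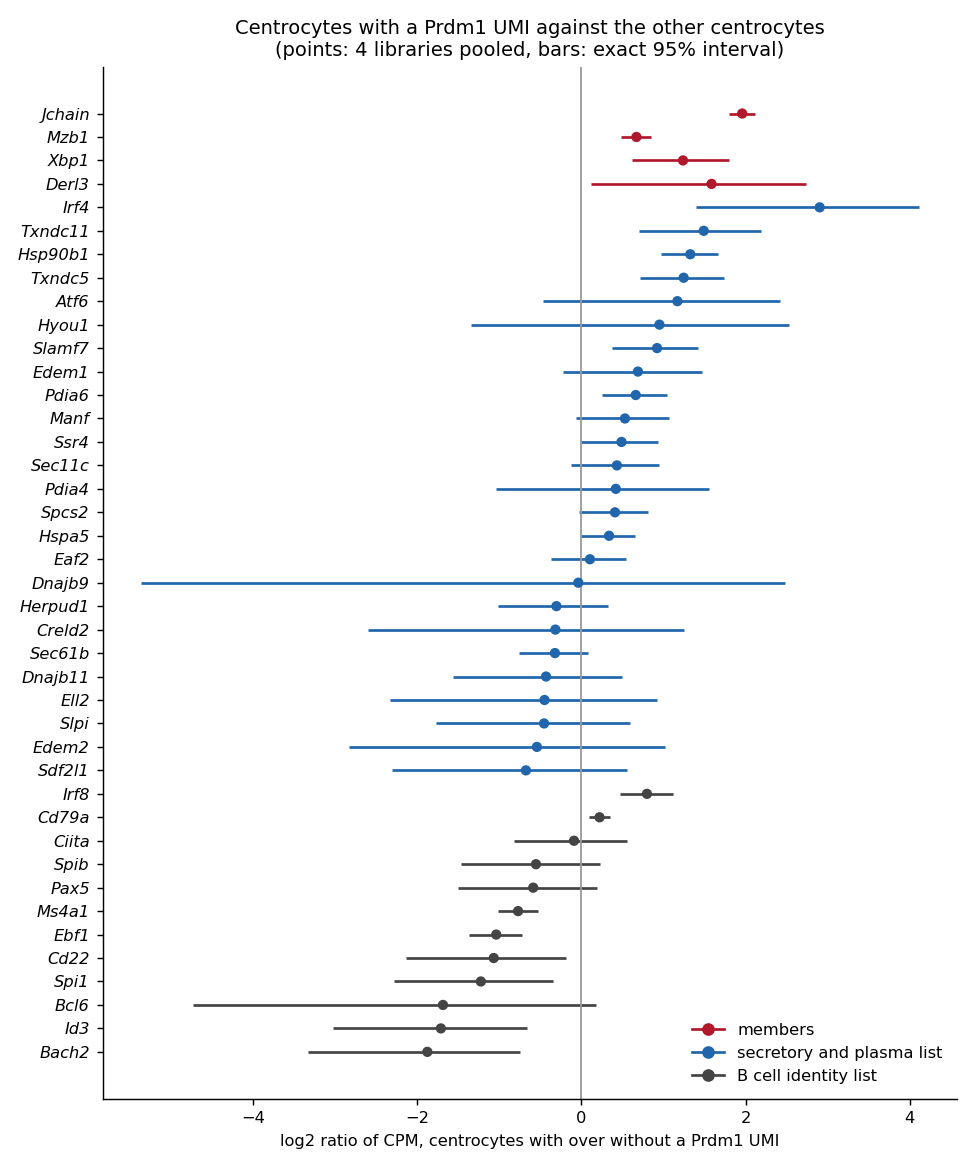
Log2 ratio of CPM in the 24 centrocytes with a Prdm1 UMI over the 2420 without (horizontal axis), 4 libraries pooled, for 4 program genes and genes of both lists with enough UMIs (vertical axis), with exact 95% intervals. Program genes lie to the right of 0, and Bach2, Id3 and Ebf1 of the B cell identity list lie to the left with their whole interval.

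Cells with a Prdm1 UMI were deeper, with a median of 4814 UMIs against 3398 in centrocytes, and none of the 24 was called a doublet. The part of depth was not tested, and the intervals cover counting error only. No test was run.

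Between genotypes the program genes in annotated cells mostly stayed within 1.5-fold. Jchain stood at 1009, 1243, 1185 and 1107 CPM in WT, C, K and CK, so WT was the lowest. The log2 ratios over WT were 0.30 (exact interval 0.25 to 0.35), 0.23 (0.19 to 0.27) and 0.13 (0.09 to 0.17). Mzb1 stood at 1537, 1677, 1519 and 1615 CPM, and Xbp1 at 97.1, 95.7, 108 and 97.3 CPM. In centrocytes alone, Jchain was 0.36 higher in C (0.25 to 0.46), while K and CK stood at -0.04 and -0.09 with intervals that include 0. In centroblasts K stood at 0.01 (-0.09 to 0.10) and CK at -0.12 (-0.21 to -0.03), and in recycling cells CK stood at -1.21 (-1.64 to -0.76). With each subtype weighted by its share in WT, the Jchain ratios were 0.25, 0.071 and -0.019 for C, K and CK.

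Derl3 had the highest ratio over WT in annotated cells. It stood at 8.25, 11.3, 16.2 and 11.4 CPM in WT, C, K and CK, from 50, 98, 206 and 175 UMIs. The log2 ratios were 0.45 (-0.06 to 0.97) for C, 0.98 (0.53 to 1.45) for K, and for CK 0.46 (0.00 to 0.95). Within centrocytes K stood at 1.13 (0.40 to 1.92) and within centroblasts at 1.35 (0.14 to 2.86). These ratios depend on the annotation, which holds no cell of 2500 genes or more. In an alternative chosen after seeing the data, which added cells above that limit by their nearest annotated cells, Derl3 stood at 15.9, 13.9, 19.7 and 12.4 CPM, and the ratios of Derl3 became -0.19 (-0.45 to 0.06) for C, 0.32 (0.10 to 0.54) for K, and for CK -0.35 (-0.59 to -0.11). In the annotated cells, 1 of 5 measurable members passed 1.5-fold upward in K, against 5.07% of all genes, and none did in C or CK, against 4.95% and 8.65%. T-like cells with a Derl3 UMI, not thinned, made up 0.324%, 0.130%, 0.632% and 0.309% in WT, C, K and CK. These shares rest on 4, 2, 9 and 8 cells and their intervals overlap. K was thus also highest outside GC cells, and whether the whole K library is shifted was not tested.

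Prdm1 stood at 2.31, 0.920, 1.26 and 1.36 CPM in WT, C, K and CK, from 14, 8, 16 and 21 UMIs. It passed 1.5-fold downward in each, at -1.33 (-2.79 to 0.02) in C, then -0.87 (-2.00 to 0.27) and -0.76 (-1.80 to 0.33), but all 3 intervals include 0. With cells above the gene limit, the C ratio of Prdm1 was -0.075 (-0.80 to 0.65), and with subtypes weighted as in WT the CK ratio was 0.42. Of all genes 3.94%, 23.6% and 9.03% passed downward in the same order, so that the K count of 1 of 5 is close to its background. The 3 ratios share the WT library. The median ratios of the 5 members were 0.13, 0.16 and 0.07, beside 0.01, -0.16 and -0.03 for all genes.

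Plasma-like cells gave other directions. Jchain stood highest in WT, with ratios of -0.17, -0.28 and -0.24 for C, K and CK, and Mzb1 stood lowest in WT, with 0.25, 0.30 and 0.53. Derl3 stood at -0.74 (-1.06 to -0.42) in C and -0.56 (-0.86 to -0.27) in CK, and at 0.12 (-0.13 to 0.36) in K. Prdm1 and Sdc1 ratios had intervals that include 0 in all 3 genotypes. The Derl3 ratio of C was past 1.5-fold. Without immunoglobulin genes in the total, these ratios kept their signs for Jchain, Mzb1 and Derl3, and the Derl3 ratio of CK also passed 1.5-fold at -0.70. The share of all genes past 1.5-fold was not computed in plasma-like cells. Whether Derl3 stands out among all genes there can therefore not be told. The sums rest on 43 to 70 cells.

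**Figure D5:**
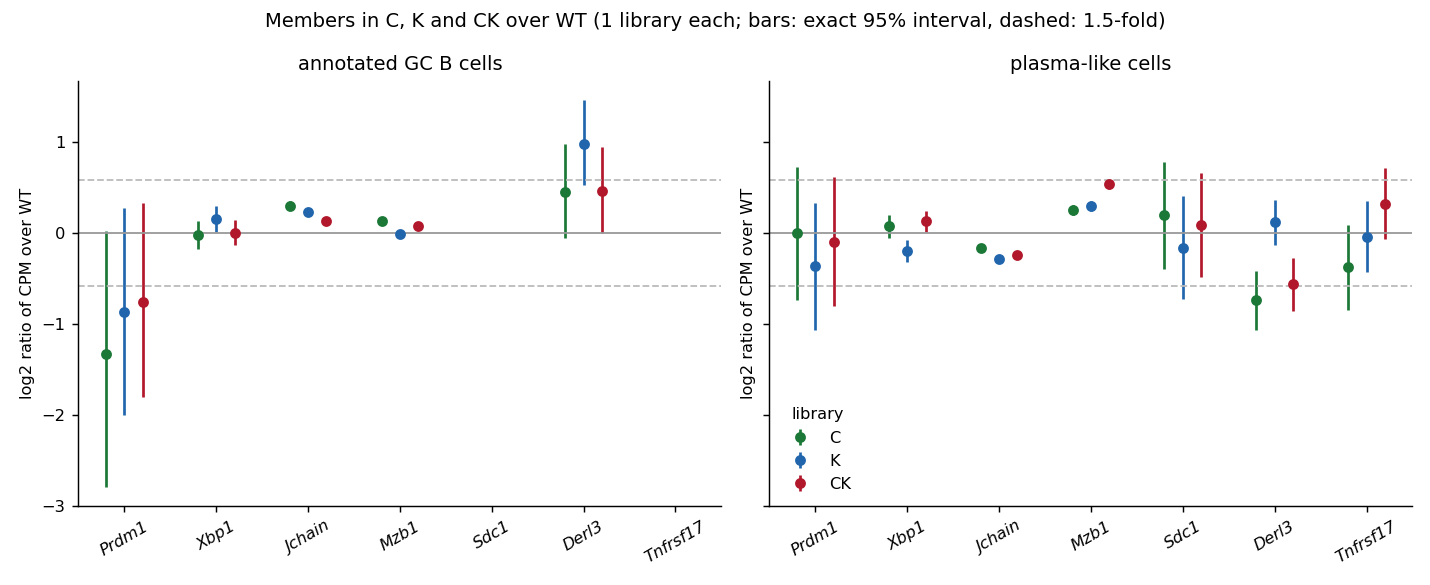
Log2 ratio of CPM over WT (vertical axis) for C, K and CK in annotated GC B cells (left) and plasma-like cells (right), with exact 95% intervals and dashed lines at 1.5-fold. Genes with fewer than 20 UMIs over both libraries are not drawn, and Derl3 of K in annotated cells is the ratio whose whole interval lies farthest above 0 (0.32 with cells above the gene limit added).

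Plasma-like cells made up 0.741% of WT barcodes below 8% mitochondrial UMIs (exact Clopper-Pearson interval 0.537 to 0.997). The C share was 0.632% (0.474 to 0.826), the K share 0.945% (0.730 to 1.20) and the CK share 0.657% (0.513 to 0.830), and all 4 intervals overlap. Per 100 annotated GC cells they numbered 3.50, 2.60, 2.52 and 1.77 in WT, C, K and CK, and 2.02, 1.94, 1.91 and 1.504 with cells above the gene limit in the denominator. The sort on B220, which plasma cells lose as they mature, limits both shares, and the denominators differ in their own cell types. Of 7291 barcodes with high mitochondrial share, which were not clustered, 37 held at least 4 of the genes.

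The 10 genes whose level was most like the mean of the 7 over 68 sums of library and cell group were Prg2, Pkd2l2, Cpeb3, Wipi1, Gm47392, Fkbp11, Zfp9, Prlr, Dnm3 and the gene a, with Pearson r from 0.913 to 0.951. These correlations rest on the plasma-like sums. Over the other 64 sums they ran from -0.18 to 0.41. Among the members themselves, Sdc1 and Tnfrsf17 correlated at 0.93 over all sums and 0.69 without plasma-like sums, and Jchain and Mzb1 at 0.78 and 0.67. Prdm1 and Xbp1 correlated at 0.66 and -0.14. The sums share libraries and cell groups, and the values are a description.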

How the data were processed

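Droplet 3' libraries from splenic B220+IgD- cells of 1 mouse per genotype were counted by the authors with Cell Ranger (version 3.0 in the submitters' processing notes, 3.0.2 in the matrix headers) against mm10, and what they deposited are raw UMI counts for every gene and barcode. The deposited cell table, made by the authors in Seurat 4.0, gives, per cell, UMI and gene counts, mitochondrial percent, a slingshot pseudotime score that is a rank, and subtype names transferred from earlier data for 9804 GC B cells.

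The 7 genes and both gene lists were chosen with earlier results of these data known. Barcodes under 8% mitochondrial UMIs, annotated or not, were clustered without the 7 genes, immunoglobulin and mitochondrial genes (scanpy 1.11.5, igraph 0.11.9, resolution 1), and unannotated ones were named from markers, clusters with markers of several classes after a second clustering at resolution 0.5. Doublets were called per library with Scrublet and kept in the main values. Levels are CPM of summed counts with exact 95% Poisson intervals, ratios have exact conditional binomial intervals, and shares exact Clopper-Pearson intervals. All intervals cover counting error only. Between genotypes a gene was counted past 1.5-fold when it had at least 20 UMIs over both libraries. Subtypes were tested on sums per library and subtype in edgeR 4.0.16 with TMM, filterByExpr and a threshold of 0.05, and DESeq2 1.42.0 as an alternative. The test was run on simulated counts with known changes first. Named genes of a list were up to 4 of largest change among those called, and the genes most like the members were ranked by Pearson correlation of log2(CPM + 10). Some genes of the lists are counted but not reported here by name. Gene positions came from GENCODE vM21.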

Additional observations from a re-analysis of the deposited data

Results flagged for a closer look

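Some members moved in opposite directions over WT in annotated GC B cells and in plasma-like cells of the same library, with both counting intervals off 0. Jchain was higher than WT in annotated cells and lower in plasma-like cells of each mutant library, and the plasma-like log2 ratio minus the annotated one came to -0.47, -0.51 and -0.37 for C, K and CK. Xbp1 in K stood at 0.16 in annotated and -0.20 in plasma-like cells, a difference of -0.35. Derl3 in CK stood at 0.46 (0.00 to 0.95) and -0.56, a difference of -1.02. When cells that exceed the annotation's gene limit were included, the Derl3 ratio of CK was -0.35 (-0.59 to -0.11), on the same side of 0 as in plasma-like cells, and the Jchain ratio of CK was 0.023 with an interval that includes 0. With subtypes weighted as in WT, the annotated Jchain ratios were 0.25, 0.071 and -0.019 for C, K and CK, and within centroblasts they were 0.15, 0.01 and -0.12. Each genotype has 1 library and the ratios share WT, so these differences were not tested.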

How the results depend on the processing

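The 15 calls of members over 5 subtype contrasts became 6 without the library block, and 12 to 14 when 1 library was left out. The number of genes called without the block was 1248 lower in early centroblasts, 1337 higher and 1567 lower in centroblasts, and 606 higher and 719 lower in transitioning cells. Over the fits that leave out 1 library, the ranges were 1193 to 2563 genes lower in early centroblasts, 462 to 801 genes higher in recycling cells, 663 to 1218 genes lower in recycling cells. Including cells that exceed the annotation's gene limit, 1598 genes were higher in recycling cells, and DESeq2 called 779 lower there. The cause was not tested. No member changed its direction in a called subtype contrast under any alternative run. The library block pairs the subtypes within each library. Between genotypes no replicated analysis was possible, because each genotype has 1 library.

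The median ratio of the members over WT was -0.030 in C and 0.023 in CK when those cells were included, 0.25 in C and -0.56 in CK relative to T-like cells, and 0.053 in C and 0.037 in CK with at least 5 UMIs. The cause was not tested. The plasma-like share of WT was 0.533% with all barcodes as denominator. With subtypes weighted as in WT, the Prdm1 ratio of CK turned from -0.76 to 0.42. Chosen after seeing the data were the ratios of single members under other settings, the denominator with added cells, the second clustering, the values without the cell richest in Jchain, and a fit without recycling cells, which left 13 member calls in 4 contrasts.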
